A study of Mus with 6 samples.

Results

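The 10 genes described here are Nqo1, Hmox1, Gclc, Gclm, Srxn1, Txnrd1, Gsr, Slc7a11, G6pdx and Osgin1, chosen by name as classic targets of the transcription factor NRF2, out of 48882 genes in the expression table. RNA was sequenced from liver, 3 libraries of Fabp4 knockout (KO) mice and 3 libraries of their wild type (WT) littermates. Both groups had the same exposure, an ethanol-containing Lieber-DeCarli liquid feed for 8 weeks followed by a single binge of ethanol, which is used to model alcoholic steatohepatitis (ASH), a fatty liver with inflammation. The labels do not give strain, sex, age or how the knockout was made, and livers of mice without ethanol were not analysed here, so the ethanol response itself cannot be read from these data. Fabp4, a fatty acid-binding protein known from adipocytes and macrophages, was listed without a value in all 3 KO libraries and at 14.7, 8.15 and 19.96 TPM in the WT libraries. Expression is in TPM (the abundance of a transcript among all transcripts, with gene length taken into account), so levels can be compared between genes.

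NRF2, encoded by Nfe2l2, is held in the cytoplasm by KEAP1 and degraded there. Electrophiles and oxidants modify KEAP1, NRF2 then reaches the nucleus, pairs with a small MAF protein and switches on genes that carry antioxidant response elements, sites that the repressor BACH1 can also occupy. In liver its targets make glutathione, regenerate reduced glutathione and thioredoxin, supply NADPH, reduce quinones and break down heme, and ethanol metabolism is a recognised source of oxidants there.

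Of the 10 genes, 9 passed the abundance filter (a mean of at least 0.5 TPM over the 6 libraries), and only Slc7a11 fell under it. None of the 9 passed the threshold between KO and WT in the test across all genes (limma, Benjamini-Hochberg adjusted p of 0.579 to 0.999), and 1 of 14155 genes tested passed, Fabp4 itself, a share of 0.00706%. At an unadjusted limma p under 0.05 there was 1 of the 9, Gclc, against 8.03% of all genes. Gclc was also the only target whose 3 KO values did not overlap the 3 WT values, and 13.3% of all genes showed such separation in either direction. The median difference of the 9, KO minus WT on the log2(TPM + 1) scale, was 0.03, beside 0.04 over all genes tested. That median depended on the libraries used, at 0.35 without WT replicate 1 (0.05 over all genes) and 0.20 without KO replicate 1 (0.03 over all genes). The differences of Gclc, Gclm, G6pdx and Osgin1 were above 0 and that of Srxn1 below 0 under every scaling tried, while those of Nqo1, Hmox1, Txnrd1 and Gsr were 0.03 or less and crossed 0 under median scaling.

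The targets were expressed at very different levels. Gclm, Gclc and Osgin1 were the most abundant, with means over the 6 libraries of 173, 150.14 and 149 TPM, and their ranges overlapped. Txnrd1, Srxn1 and Gsr followed at 67.2, 58.0 and 49.9 TPM, also with overlapping ranges, and each lay below Osgin1 in all 6 libraries. Hmox1 and Nqo1 came next at 24.1 and 19.6 TPM and did not separate from each other. G6pdx, at 4.16 TPM, lay below Nqo1 in all 6 libraries. Slc7a11 was at most 0.120 TPM.

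Glutathione synthesis held the target with the widest separation. Gclc encodes the catalytic subunit of glutamate-cysteine ligase, the rate-limiting enzyme of glutathione synthesis (mm10 chromosome 9, 77754518 to 77794489, plus strand). It was measured at 155, 244 and 150.45 TPM in KO replicates 1, 2 and 3, against 125, 87.7 and 139 TPM in WT replicates 1, 2 and 3. All KO libraries lay above all WT libraries, with KO replicate 2 far above and WT replicate 2 far below the others, while the nearest KO and WT values were close. Gclc averaged 183 ± 52.8 TPM in KO livers and 117 ± 26.4 TPM in WT livers (SD, n = 3 each), a log2 difference of 0.63 (SE 0.24, 95% interval 0.07 to 1.19; limma adjusted p 0.579). An exact permutation test over the libraries (two-sided) gave p = 0.1, and no smaller p can be reached with 3 libraries a group. The log2 difference was 0.40 without KO replicate 2 and 0.44 without WT replicate 2.

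Gclm encodes the modifier subunit of the same ligase, which raises the affinity of the catalytic subunit for glutamate (chromosome 3, 122245557 to 122267215). It was at 167, 229 and 169 TPM in the KO libraries and at 182, 138 and 150.5 TPM in the WT libraries. The groups overlapped, since WT replicate 1 exceeded KO replicates 1 and 3. The means were 188 ± 35.4 TPM in KO livers and 157 ± 22.7 TPM in WT livers (SD, n = 3 each), with a log2 difference of 0.25 (SE 0.17, 95% interval -0.14 to 0.65; limma adjusted p 0.752), within the spread between libraries. The log2 difference was 0.11 without KO replicate 2 and 0.37 without WT replicate 1. The ratio of Gclc to Gclm was 0.928, 1.07 and 0.892 in the KO libraries and 0.687, 0.635 and 0.921 in the WT libraries. That ratio overlapped between the groups through WT replicate 3 (exact two-sided permutation p = 0.2, adjusted over 6 such ratios 0.4). A pseudogene, Gm6061, and an antisense transcript overlap the Gclm interval in the table, both with at most 2.66 TPM.

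Slc7a11 encodes the light chain of the cystine/glutamate exchanger, which brings in the cystine used to make glutathione (chromosome 3, 50364936 to 50499087). It was listed without a value in KO replicate 1 and at 0.00882 and 0.106 TPM in KO replicates 2 and 3, against 0.120, 0.0403 and 0.0617 TPM in the WT libraries. These levels lie far under those of the next target, G6pdx, and the gene was not tested with the others. With no abundance filter its log2 difference was -0.05 (SE 0.05; limma adjusted p 0.840), a value that the pseudocount of 1 compresses.

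The enzymes that recycle oxidised thiols showed the most even levels. Gsr encodes glutathione reductase, which returns oxidised glutathione to its reduced form with NADPH (chromosome 8, 33653238 to 33698162). It was at 45.3, 55.1 and 50.1 TPM in the KO libraries and at 52.8, 50.1 and 46.3 TPM in the WT libraries. The groups interleaved fully, and the highest library exceeded the lowest by 1.21-fold, the narrowest range of the 9 targets tested. Its log2 difference was 0.01, with a 95% interval of -0.28 to 0.30 (SE 0.12; limma adjusted p 0.988), which corresponds to KO levels of 0.824 to 1.23 times the WT level on the TPM + 1 scale.

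Txnrd1 encodes the cytosolic thioredoxin reductase, a selenoprotein (chromosome 10, 82833951 to 82897724). It was at 53.4, 81.3 and 69.6 TPM in the KO libraries and at 78.4, 63.3 and 57.3 TPM in the WT libraries. KO libraries held both the highest and the lowest value, and the means, 68.1 ± 14.0 TPM in KO livers and 66.3 ± 10.9 TPM in WT livers (SD, n = 3 each), differed by far less than the spread (log2 0.03, SE 0.19, 95% interval -0.41 to 0.47; limma adjusted p 0.981). Its mitochondrial relative Txnrd2 had a log2 difference of 0.19 (SE 0.17) and Txnrd3 one of -0.03 (SE 0.20), and the ratio of Txnrd1 to Txnrd2 averaged 2.37 ± 0.689 in KO livers and 2.62 ± 0.568 in WT livers (SD, n = 3 each).

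Srxn1 encodes sulfiredoxin, which repairs overoxidised peroxiredoxins (chromosome 2, 152105524 to 152111376). It was the only one of the 9 with a negative log2 difference, at 52.7, 53.9 and 54.9 TPM in the KO libraries and 61.0, 76.4 and 49.1 TPM in the WT libraries. The KO values were nearly equal and lay inside the WT range, whose top was WT replicate 2. The log2 difference was -0.18 (SE 0.17, 95% interval -0.57 to 0.21; limma adjusted p 0.826), and it was -0.02 without WT replicate 2 and -0.34 without WT replicate 3.

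G6pdx encodes the X-linked glucose-6-phosphate dehydrogenase, which makes NADPH at the entry of the pentose phosphate pathway (X chromosome, 74409486 to 74429161, minus strand). It was at 4.74, 4.73 and 4.51 TPM in the KO libraries and at 4.65, 3.29 and 3.01 TPM in the WT libraries. WT replicate 1 stood within the KO range and the other WT libraries below it. The means were 4.66 ± 0.128 TPM in KO livers and 3.65 ± 0.879 TPM in WT livers (SD, n = 3 each; log2 0.30, SE 0.16, 95% interval -0.08 to 0.67; limma adjusted p 0.698). Without WT replicate 1 the log2 difference was 0.45. Ikbkg, a more abundant gene on the opposite strand, spans the G6pdx interval, and reads of this pair cannot be told apart if the libraries were unstranded, which the sources used here do not give. Ikbkg was at 14.0, 17.8 and 13.6 TPM in the KO libraries and at 22.0, 18.0 and 14.7 TPM in the WT libraries. The autosomal retrogene copy G6pd2 had no value in any library.

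Nqo1 encodes a quinone reductase widely used as a read-out of NRF2 activity (chromosome 8, 107388225 to 107403205). It was at 14.0, 24.8 and 20.5 TPM in the KO libraries and at 18.6, 17.0 and 22.7 TPM in the WT libraries. The lowest and the highest value both came from KO libraries, replicates 1 and 2, and the group means were 19.8 ± 5.43 TPM in KO livers and 19.4 ± 2.97 TPM in WT livers (SD, n = 3 each). The log2 difference was 0.00089 (SE 0.21, 95% interval -0.50 to 0.50; limma adjusted p 0.999). The related gene Nqo2 was measured at a log2 difference of 0.38 (SE 0.25).

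Hmox1 encodes heme oxygenase 1, which opens the heme ring to biliverdin, carbon monoxide and iron, and which macrophages that take up red blood cells express strongly (chromosome 8, 75093618 to 75100593). It was at 17.9, 22.3 and 31.2 TPM in the KO libraries and at 36.6, 19.5 and 16.7 TPM in the WT libraries. WT replicate 1 and KO replicate 3 were the highest libraries and the groups overlapped (23.8 ± 6.78 TPM in KO livers and 24.3 ± 10.8 TPM in WT livers, SD, n = 3 each; log2 0.02, SE 0.31; limma adjusted p 0.991). Its 95% interval, -0.70 to 0.74, was the widest of the 9. The log2 difference was 0.35 without WT replicate 1, -0.19 without KO replicate 3, -0.09 without WT replicate 2 and -0.20 without WT replicate 3. The constitutive form Hmox2 had a log2 difference of -0.24 (SE 0.17).

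The same libraries were highest for Hmox1 and for Kupffer cell and macrophage markers. The summed level of 16 such markers was 591, 681 and 1269 TPM in KO replicates 1, 2 and 3 and 835, 282 and 369 TPM in WT replicates 1, 2 and 3, and none of the 16 was at 0. All 16 had a KO mean above the WT mean, 4 of them without overlap (8.94% of all genes lay wholly higher), and 0 passed the limma threshold (5 at an unadjusted p under 0.05, against 8.03% of all genes). Markers of other cell types differed in level as well, and 0 of them passed the limma threshold. All 12 endothelial markers had a higher KO mean, 9 without overlap and 8 at an unadjusted p under 0.05, with sums of 328, 300.69 and 354 TPM in the KO libraries and 267, 209 and 218 TPM in the WT libraries. All 10 stellate cell and fibroblast markers tested of 11 had a higher KO mean, 2 without overlap and 2 at an unadjusted p under 0.05, with sums of 375, 295 and 308 TPM in the KO libraries and 311, 266 and 253 TPM in the WT libraries. Of 13 neutrophil markers only 4 passed the abundance filter, and all 4 had a lower KO mean. Of these, 1 was without overlap (4.38% of all genes lay wholly lower) and 3 had an unadjusted limma p under 0.05. The neutrophil sums were 21.0, 20.6 and 16.6 TPM in the KO libraries and 42.1, 50.6 and 21.7 TPM in the WT libraries. KO replicate 3 and WT replicate 1 were also the highest libraries for B and T lymphocyte markers, so that match was not particular to macrophages. The lymphocyte sums were 16.7, 14.1 and 21.1 TPM in the KO libraries and 19.7, 8.95 and 9.41 TPM in the WT libraries. Of 8 lymphocyte markers tested of 11, 7 had a higher KO mean, 2 without overlap and 2 at an unadjusted p under 0.05. In whole liver, more cells of a type and more RNA per cell cannot be told apart, and the part that any of these cells have in the Hmox1 level was not tested.

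**Figure D1:**
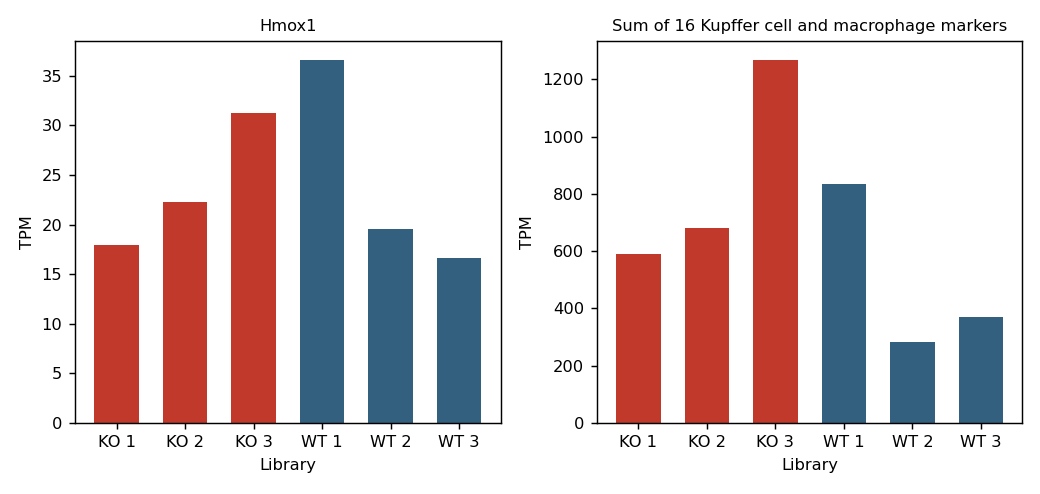
Level in TPM (bars, from 0) of Hmox1 (left) and of the sum of 16 Kupffer cell and macrophage markers (right) in each KO (red) and WT (blue) library. KO replicate 3 and WT replicate 1 are the highest libraries in both panels, with Hmox1 at 31.2 and 36.6 TPM.

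Osgin1, a gene induced by oxidative stress and linked to growth arrest, was as abundant as Gclc (chromosome 8, 119434135 to 119446256). It was at 178, 203 and 108 TPM in the KO libraries and at 164, 96.7 and 147 TPM in the WT libraries. KO replicates 1 and 2 exceeded every WT library and KO replicate 3 lay below WT replicates 1 and 3. The log2 difference was 0.25 (SE 0.28, 95% interval -0.40 to 0.90, limma adjusted p 0.863), 0.52 without KO replicate 3 and 0.02 without WT replicate 2. The related gene Osgin2 lay wholly lower in KO, as did 4.38% of all genes (log2 -0.39, SE 0.18, limma adjusted p 0.658). Without KO replicate 2 the log2 difference of Osgin2 was -0.23.

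**Figure D2:**
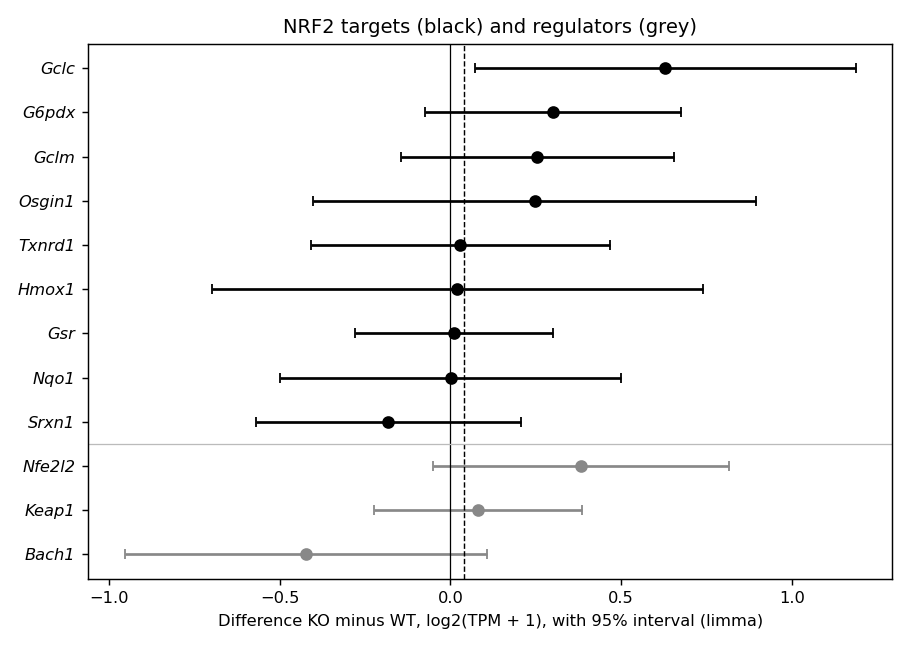
Difference KO minus WT in log2(TPM + 1) (horizontal axis) for the 9 NRF2 targets tested (black) and for Nfe2l2, Keap1 and Bach1 (grey), with 95% intervals from limma; the dashed line is the median of all genes tested, 0.04. The interval of Gclc, 0.07 to 1.19, is the only one shown that lies wholly on one side of 0, and no gene shown passed the adjusted threshold.

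Which targets separated the groups varied with the libraries used. Without KO replicate 3 there were 3 such targets, Gclc, G6pdx and Osgin1, all higher in KO, where 19.6% of all genes tested separated in either direction. Without WT replicate 1 there were also 3, Gclc, Gclm and G6pdx, where 24.6% of all genes did. Without WT replicate 3 there were 2, Gclc higher and Srxn1 lower in KO, where 26.3% did. Gclc alone separated the groups without KO replicate 1, KO replicate 2 or WT replicate 2, where 27.4%, 22.9% and 21.4% of all genes did. Since Gclc was already apart with all libraries, it had to stay apart in each of these subsets.

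The targets varied between libraries of the same genotype, and KO replicate 2 stood out. It held the highest value for 6 of the 9 targets tested, Nqo1, Gclc, Gclm, Txnrd1, Gsr and Osgin1, whereas 11.6% of all genes tested were highest in that library. The lowest values were shared by KO replicate 1 (Nqo1, Txnrd1 and Gsr), WT replicate 2 (Gclc, Gclm and Osgin1) and WT replicate 3 (Srxn1, Hmox1 and G6pdx). The mean level of the 9, each gene centred on its mean over the libraries, was -0.09, 0.28 and 0.03 on the log2 scale in KO replicates 1, 2 and 3 and 0.14, -0.21 and -0.14 in WT replicates 1, 2 and 3. WT replicate 1 thus lay above KO replicates 1 and 3. All 15 hepatocyte markers examined passed the abundance filter, and their summed level in KO replicate 2, 144090 TPM, was inside the range of the other libraries, 142130 to 154250 TPM. Whether hepatocyte content has a part in the target levels of KO replicate 2 was not tested.

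**Figure D3:**
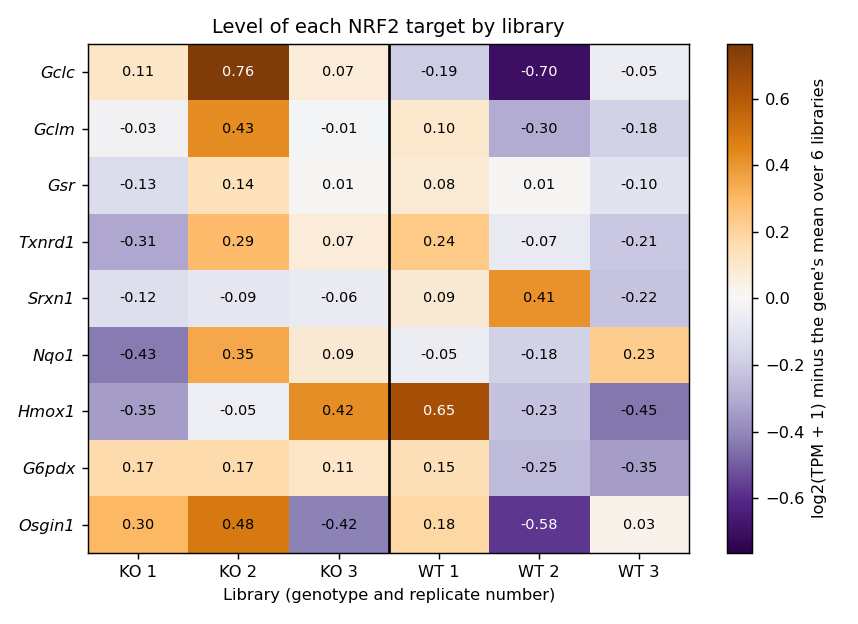
Level of each of the 9 NRF2 targets tested (rows) in each library (columns, KO left of the line, WT right of it), as the deviation of log2(TPM + 1) from that gene's average level in all libraries; orange is above the mean and purple below it. KO replicate 2 is the highest column for 6 of the 9 genes.

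Across all genes WT replicate 2 lay apart from the other libraries on the first principal component (38.1, against -22.3 to 2.50), which held 33.9% of the variance, and KO replicate 1 on the second (30.8, against -21.8 to 5.92; 21.6%). With both left out, the log2 difference of Gclc was 0.54 and none of the 9 targets passed the threshold.

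NRF2 itself and the proteins that control it were compared next, as a list of 18 genes of which 16 passed the abundance filter. None passed the limma threshold or had an unadjusted p under 0.05, 7 were higher and 9 lower in KO, and their median log2 difference was -0.02, beside 0.04 over all genes tested. Nfe2l2 was at 44.0, 53.5 and 45.0 TPM in the KO libraries and at 39.8, 27.3 and 42.9 TPM in the WT libraries. It was the only one of the 16 without overlap, with every KO library above every WT library, where 8.94% of all genes lay that way. The closest KO and WT values nearly met, and the groups overlapped after median scaling, quantile normalization or rescaling of each library to the same total. Its log2 difference was 0.38 (SE 0.19, 95% interval -0.05 to 0.82; limma adjusted p 0.683), and 0.19 without WT replicate 2.

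Keap1, the sensor and repressor, was at 19.9, 22.6 and 19.9 TPM in the KO libraries and at 22.2, 18.5 and 18.3 TPM in the WT libraries, with interleaved groups (log2 0.08, SE 0.13; limma adjusted p 0.910). Bach1, which competes with NRF2 for its sites, was at 8.65, 14.3 and 10.1 TPM in the KO libraries and at 19.2, 11.7 and 14.5 TPM in the WT libraries. WT replicates 1 and 3 exceeded every KO library and WT replicate 2 lay among them (log2 -0.42, SE 0.23, 95% interval -0.95 to 0.11; limma adjusted p 0.698). The log2 difference of Bach1 was -0.28 without KO replicate 1, -0.25 without WT replicate 1, -0.61 without KO replicate 2 and -0.58 without WT replicate 2, and the groups did not overlap in the last 2 of these. The small MAF gene Mafk averaged 4.56 ± 0.400 TPM in KO livers and 6.54 ± 2.17 TPM in WT livers (SD, n = 3 each; log2 -0.40, SE 0.23), and its log2 difference was -0.22 without WT replicate 2 and -0.65 without WT replicate 3. Nfe2l1, a related factor, had a log2 difference of -0.25 (SE 0.18), and -0.06 without WT replicate 1. Sqstm1, whose product p62 binds KEAP1, had one of -0.02 (SE 0.15).

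A further 40 genes known as NRF2 targets were examined, of which 38 passed the abundance filter. None passed the limma threshold, 28 were higher and 10 lower in KO, where 57.4% of all genes tested were higher, and 4 had an unadjusted p under 0.05, against 8.03% of all genes. Their median log2 difference was 0.10, beside 0.04 over all genes. No overlap between the groups was seen for 7 of them, 5 higher and 2 lower in KO, where 8.94% of all genes lay wholly higher and 4.38% wholly lower.

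The carbonyl reductase gene Cbr1 had the smallest p of that list. It was at 217, 282 and 205 TPM in the KO libraries and at 162, 125 and 145 TPM in the WT libraries, with a clear gap between the groups (log2 0.69, SE 0.16, 95% interval 0.31 to 1.07; limma adjusted p 0.522). With a single library left out, its log2 difference lay between 0.55 without KO replicate 2 and 0.78 without KO replicate 3. Its neighbour on chromosome 16, Cbr3, was measured at 2.77, 4.99 and 2.31 TPM in the KO libraries and at 1.33, 2.01 and 1.71 TPM in the WT libraries (log2 0.66, SE 0.24; limma adjusted p 0.564), with a log2 difference of 0.40 without KO replicate 2. Ephx1, the microsomal epoxide hydrolase, averaged 703 ± 102 TPM in KO livers and 524 ± 36.4 TPM in WT livers (SD, n = 3 each; log2 0.42, SE 0.15; limma adjusted p 0.564), again without overlap.

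Glutathione transferase genes of the list lay on both sides of 0. Gstm2 was at 57.8, 56.5 and 78.3 TPM in the KO libraries and at 75.8, 111 and 118 TPM in the WT libraries, and the groups overlapped through KO replicate 3 and WT replicate 1 (log2 -0.64, SE 0.21; limma adjusted p 0.536). Gsta2, Gstm3 and Cyp2a5, picked after their values were seen, show how far KO libraries differed from each other. Gsta2 was at 29.6, 111 and 48.7 TPM in the KO libraries, against 56.8, 61.2 and 67.3 TPM in the WT libraries. Gstm3 was at 80.7, 271 and 184 TPM in the KO libraries, against 218, 240.25 and 189 TPM in the WT libraries. Cyp2a5 was at 876, 2197 and 1384 TPM in the KO libraries, against 1179, 1112 and 1358 TPM in the WT libraries. For each of these genes KO replicate 2 was the highest and KO replicate 1 the lowest of all 6 libraries, and 19 of the 38 genes were highest in KO replicate 2, as were 11.6% of all genes tested. Gstm and Gsta genes have near-identical copies, so reads can be split among them and their separate values are uncertain.

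The pathways that the targets feed into were taken as 4 further lists, and in none of them did a gene pass the limma threshold. Of 24 genes of glutathione synthesis and use, 15 were higher and 9 lower in KO (median log2 0.03; 2 at an unadjusted p under 0.05, against 8.03% of all genes). Ggt6, a gamma-glutamyltransferase family gene, averaged 14.9 ± 1.91 TPM in KO livers and 10.9 ± 1.28 TPM in WT livers (SD, n = 3 each) without overlap, and Chac1, which degrades glutathione, was at 0.863, 0.506 and 0.228 TPM in the KO libraries and 0.688, 2.87 and 2.50 TPM in the WT libraries. Of 20 genes of the thioredoxin system, 12 were higher and 8 lower in KO (median log2 0.10), and 0 had an unadjusted limma p under 0.05. Wholly higher in KO were 2 of the 20 and wholly lower 0, where 8.94% and 4.38% of all genes lay so. The sestrin gene Sesn2 was at 3.71, 4.69 and 5.44 TPM in the KO libraries and at 3.55, 3.73 and 1.77 TPM in the WT libraries (log2 0.51, SE 0.24), and its log2 difference was 0.26 without WT replicate 3. Msrb3, a methionine sulfoxide reductase, did not overlap between the groups (log2 0.29, SE 0.15; 0.16 without WT replicate 3). Txn1, cytosolic thioredoxin itself, had a log2 difference of 0.19 (SE 0.12). Txnip, an inhibitor of thioredoxin, had one of -0.42 (SE 0.30), which was -0.13 without WT replicate 1 and -0.76 without WT replicate 3.

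Of 16 genes of NADPH supply, 12 were higher and 4 lower in KO, where 57.4% of all genes tested were higher (median log2 0.16, beside 0.04 over all genes). At an unadjusted limma p under 0.05 there were 2 of the 16, against 8.03% of all genes. Wholly higher in KO were 5 of the 16, against 8.94% of all genes. The mitochondrial isocitrate dehydrogenase Idh2 was at 123, 134 and 135 TPM in the KO libraries and at 103, 99.1 and 106 TPM in the WT libraries (log2 0.35, SE 0.11; limma adjusted p 0.536). H6pd, the hexose-6-phosphate dehydrogenase of the endoplasmic reticulum and a relative of G6pdx, was at 85.9, 117 and 76.8 TPM in the KO libraries and at 153, 171 and 106 TPM in the WT libraries, where KO replicate 2 exceeded WT replicate 3 (log2 -0.61, SE 0.22; limma adjusted p 0.574). The ratio of G6pdx to H6pd was higher in every KO library, at 0.0551, 0.0405 and 0.0588, against 0.0304, 0.0193 and 0.0285 in the WT libraries (exact two-sided permutation p = 0.1, the smallest possible; adjusted over 6 ratios 0.4). H6pd was named for its small limma p within its list, and the ratio was chosen after the values were seen. The separation of the ratio rests in part on that choice, which the adjustment over 6 ratios does not cover. That ratio also carries the doubt about the Ikbkg overlap.

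Of 22 genes of heme and iron handling other than Hmox1, 16 were higher and 6 lower in KO (median log2 0.15). At an unadjusted limma p under 0.05 there were 3, against 8.03% of all genes. Wholly higher were 3 and wholly lower 1, where 8.94% and 4.38% of all genes lay so. Alad, the second enzyme of heme synthesis, averaged 62.9 ± 4.18 TPM in KO livers and 44.3 ± 6.46 TPM in WT livers (SD, n = 3 each), without overlap (log2 0.50, SE 0.14; limma adjusted p 0.522). Alas1, the rate-limiting first enzyme, was at 631, 658 and 1310.3 TPM in the KO libraries and at 447, 369.54 and 632 TPM in the WT libraries, where the groups met at KO replicate 1 and WT replicate 3 (log2 0.79, and 0.45 without KO replicate 3). Cpox, coproporphyrinogen oxidase of the same pathway, lay wholly lower, at 92.1 ± 5.54 TPM in KO livers and 111 ± 11.7 TPM in WT livers (SD, n = 3 each; log2 -0.26, SE 0.13). Cd163, the macrophage receptor for hemoglobin bound to haptoglobin, was at 6.65, 8.18 and 9.76 TPM in the KO libraries and at 5.12, 5.87 and 5.06 TPM in the WT libraries, and it is also one of the macrophage markers above.

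Slc7a11 and Chac1 also answer to ATF4, the factor of the amino acid response. Of 21 ATF4 targets, 8 were higher and 13 lower in KO, where 57.4% of all genes tested were higher. None passed the limma threshold, and 2 had an unadjusted p under 0.05, against 8.03% of all genes. Their median log2 difference was -0.23, beside 0.04 over all genes. Atf3 alone lay wholly higher in KO and Asns alone wholly lower, where 13.3% of all genes separated in either direction. Asns, asparagine synthetase, was at 2.67, 1.20 and 2.14 TPM in the KO libraries and at 5.50, 15.8 and 6.12 TPM in the WT libraries, without overlap (log2 -1.65, SE 0.37, 95% interval -2.51 to -0.78; limma adjusted p 0.522). The log2 difference of Asns was -1.21 without WT replicate 2. Atf3, a stress-induced transcription factor, was at 3.11, 2.80 and 6.54 TPM in the KO libraries and at 2.78, 0.698 and 2.76 TPM in the WT libraries (log2 0.76, SE 0.38; limma adjusted p 0.683). The nearest KO and WT values of Atf3 almost met, and its log2 difference was 0.38 without WT replicate 2 and 0.45 without KO replicate 3. The amino acid transporter Slc7a5, a relative of Slc7a11 and outside that list, was higher in each KO library, at 1.43, 1.73 and 1.83 TPM in the KO libraries and 0.699, 0.966 and 0.397 TPM in the WT libraries (log2 0.67, SE 0.18; limma adjusted p 0.522).

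**Figure D4:**
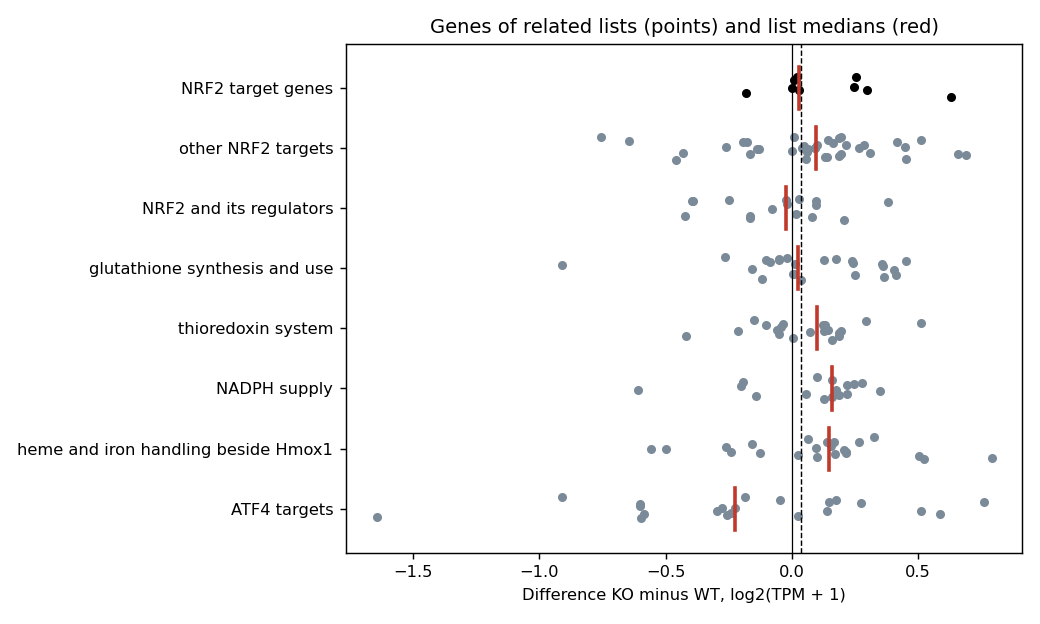
Difference KO minus WT in log2(TPM + 1) (horizontal axis) of each tested gene (points, spread vertically to be visible) in the NRF2 target genes and 7 related lists, with the list median as a red line and the median of all genes tested, 0.04, as a dashed line. List medians lie between -0.23 for ATF4 targets and 0.16 for NADPH supply, and the single genes of every list lie on both sides of 0.

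Among the genes whose profile over the 6 libraries was most like the mean of the 9 targets were Cmtr1 (Pearson r 0.996), Gmip (0.988), Ubr2 (0.982), Mtm1 (0.980) and Pxn (0.975), out of 10915 named genes with a mean of at least 1 TPM. They were picked as the highest r out of all 10915, of which 149 had an r of at least 0.9. With only 6 libraries, a high r found by such a search says little about a single gene. Among the genes of the lists Keap1 was the most alike (0.951), followed by the aldehyde oxidase Aox1 (0.886). Ubr2 was at 17.3, 26.7 and 21.4 TPM in the KO libraries and at 21.5, 15.6 and 16.7 TPM in the WT libraries. It was highest in KO replicate 2, with WT replicate 1 above KO replicates 1 and 3, an order that follows from its choice by likeness.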

How the data were processed

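Liver RNA was sequenced as 6 libraries (3 KO, 3 WT) on a HiSeq system, per the labels. FastQC, Trimmomatic and the build mm10 appear in the submitters' processing notes; aligner, quantification tool, annotation and strandedness: not given in the sources used here. Per the file headers the 6 value columns are TPM. Since many deposited values are negative, and powers of 2 of them add up to 983800 to 1018118 per library, they were read as log2 TPM. All 6 columns share 1 maximum and nearly the same median, which quantile normalization leaves, so a shift of all genes cannot be seen. Blanks were taken as 0 TPM. TPM keeps no depth, so no counting interval is given and precision rests on 3 libraries a group. No pair of libraries was identical. Nothing states that replicates are separate mice, so p-values measure the spread between libraries.

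Values were back-transformed, and log2(TPM + 1) of the 14155 genes with a mean of at least 0.5 TPM was fitted with limma 3.58.1 in R 4.3.3 (eBayes, trended; only group in the model; two-sided; Benjamini-Hochberg over all genes tested; threshold 0.05). The pseudocount of 1 understates changes of low genes. The fit was tested on simulated data. Single values used the exact permutation test over libraries. The members and lists were chosen with earlier results of these data known. Named genes are the 10 targets, Fabp4, Nfe2l2, Keap1, Bach1, up to 4 genes per list with the smallest p and the 6 most like profiles, of which 1 is not reported here. Sqstm1, Txnrd2, Txnrd3, Nqo2, Hmox2, G6pd2, Ikbkg, Aox1, those so marked in the text and the 6 ratios between genes were chosen after the values were seen. All listed genes matched the table, 1 through an older symbol in the GRCm38.p6 RefSeq gene table. Alternatives covered pseudocount, filter, scaling, variance model, replicate block and left-out libraries.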

Additional observations from a re-analysis of the deposited data

How the results depend on the processing

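In all 19 alternatives 0 of the NRF2 targets passed the limma threshold, and 147 of 170 recomputed target differences kept their direction. That count includes the changes of filter, variance model and replicate block, which leave the log2 difference of a gene as it was and so could not reverse it. Gclc, Gclm, G6pdx and Srxn1 kept their direction in every alternative in which they were tested. The small differences reversed. Nqo1 was at -0.00044 with a pseudocount of 0.1, -0.035 after median scaling, -0.026 after quantile normalization, -0.015 after rescaling each library to the same total and -0.00060 on the deposited log2 values. Hmox1 was at -0.016 after median scaling and -0.0039 after quantile normalization, and Txnrd1 at -0.0069 after median scaling. Gsr was at -0.026, -0.012 and -0.0069 after median scaling, quantile normalization and rescaling. Osgin1 was at -0.069 without WT replicate 2 and KO replicate 1 together. With 1 library left out, the log2 difference ranged from -0.17 to 0.22 for Nqo1, -0.20 to 0.35 for Hmox1, -0.11 to 0.19 for Txnrd1 and -0.058 to 0.079 for Gsr. The median of the 9 then ranged from 0.0091 to 0.35 (0.35 without WT replicate 1), and the number of targets without overlap from 1 to 3. Over all genes, 0 to 2 passed with 1 library left out, 0 with no filter and 0 with the replicate block (the cause was not tested). On the deposited log2 values 0 passed, a fit of the 16831 genes with a value in all libraries and so without Fabp4. No pairing by equal replicate number was seen (correlations of deviations -0.26, -0.27 and -0.05), and no sample correlated best with its own number. Deviations from the mean of only 3 libraries depend on each other, so this check cannot exclude a pairing or a shared batch. With every replicate number in both groups, the block cannot change a log2 difference, which for Gclc stayed at 0.63. The limma adjusted p of Gclc with the block was 0.861. Median scaling and quantile normalization turned 725 higher and 412 lower genes at an unadjusted p under 0.05 into 565 and 530, and into 570 and 537. TPM keeps no depth, so how many reads lie behind low genes such as Slc7a11 and G6pdx is unknown.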
